A study of Mus musculus with 9 samples.

Results

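The expression of 34 lysosomal genes was described in 9 clones of primary cells grown from mouse pancreatic tumors (MPC). The genes were taken by their symbols, and all 34 were found among the 18049 genes listed for these libraries. They encode 11 glycosidases, 4 sulfatases, 5 lipid enzymes and activators, 1 protease, 2 proteins of sterol export, the secreted progranulin, 7 membrane proteins and the 3 transcription factors Tfeb, Tfe3 and Mitf. The cathepsins were left out of the list. The cells were cultured from tumors of WTg mice, whose genotype is given as EL1-Luc/EL1-Tag x CAG-Mettl3. In these mice the elastase I promoter, active in pancreatic acinar cells, drives luciferase and the T antigen, and the ubiquitous CAG promoter drives Mettl3, the catalytic subunit of the RNA N6-adenosine methyltransferase. Tumor pieces were plated, the attached cells were passaged, and separate colonies were picked with cloning cylinders, so each library is 1 cultured clone and not a tumor. The treatment label reads none for every clone, although a protocol field names NMS-P937, a Plk1 inhibitor, at 80 nM for 24 h. The sources used here do not state how old the mice were. There was a single condition, and cells without the Mettl3 transgene were not analysed here.

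Lysosomes are acidic organelles in which hydrolases break down glycans, lipids and proteins delivered by endocytosis, phagocytosis and autophagy. Most of the soluble enzymes are marked with mannose 6-phosphate in the Golgi and carried to the lysosome by its receptors, while membrane proteins such as Lamp1 and Lamp2 line the organelle and channels and exporters move ions, sterols and amino acids out of it. Loss of single enzymes causes lysosomal storage diseases. Tfeb, Tfe3 and Mitf belong to a family of basic helix-loop-helix transcription factors that bind E-boxes in the promoters of many lysosomal genes when nutrients are scarce. Macrophages and osteoclasts are rich in lysosomes.

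RefSeq promoters (assembly GRCm38.p6, from 250 bases before to 50 bases after the start site) matched 32 of the 34 genes. The E-box core CACGTG, which reads the same on both strands, was present in the promoters of 9 of these 32 genes (28.1%) and of 2187 of all 27025 RefSeq genes with a promoter (8.09%). The longer form of 10 bases, in which GT precedes the core and AC follows it and which also reads the same on both strands, was present in 1 of the 32 (3.13%), against 0.370% of all genes. A match of letters describes the promoter and is not evidence of binding. One window per gene, and a second for Lamp1 and Mcoln1, is shown because these are the members whose promoters hold the core of the family's E-box. Each runs 5′ to 3′ on the strand of the gene, with the core in capitals.
Gaa: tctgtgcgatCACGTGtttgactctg
Gla: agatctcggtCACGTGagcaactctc
Glb1: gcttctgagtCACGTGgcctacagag
Naglu: accttcaggtCACGTGgcccgaggtc
Sgsh: gcctgccgtgCACGTGaccgtgggga
Arsa: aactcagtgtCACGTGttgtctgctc
Lamp1, first: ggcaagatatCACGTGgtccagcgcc
Lamp1, second: tgccgactggCACGTGaccacatcac
Mcoln1, first: tcgcgcttgtCACGTGttcagttcag
Mcoln1, second: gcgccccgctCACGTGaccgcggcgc
Cln3: cgggtactgtCACGTGacccccaacc

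The windows lie on GRCm38.p6 at chr11:119267813-119267838 (plus strand) for Gaa, chrX:134601184-134601209 (minus) for Gla, chr9:114401020-114401045 (plus) for Glb1, chr11:101070011-101070036 (plus) for Naglu, chr11:119355524-119355549 (minus) for Sgsh and chr15:89477425-89477450 (minus) for Arsa. Those of Lamp1 are at chr8:13159090-13159115 and chr8:13159123-13159148 (plus), those of Mcoln1 at chr8:3500438-3500463 and chr8:3500464-3500489 (plus), and that of Cln3 at chr7:126583342-126583367 (minus). The core began 16 bases before the start site in Arsa, 29 in Sgsh, 48 in Glb1 and 73 in Naglu, and farther upstream in Cln3 (121), Gaa (140) and Gla (194). Lamp1 held 4 cores, and Gla, Mcoln1 and Cln3 held 2 each. The Lamp1 windows shown hold the cores that began 61 and 28 bases before the start site. Their labels number the windows and not the cores. The Cln3 window is the one with the 10-base form.

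Each library is given as normalized counts, which are read counts multiplied by 1 factor per library. The libraries held 12198036 to 20453901 reads assigned to genes, and 1 read was worth 1.26 to 2.19 normalized counts. The lowest read count of any of the 34 genes was 184, for Tfeb in the library with the fewest reads, so none was near the floor of 3 reads. The column names fall under 3 prefixes of unstated meaning, MET_EL with 1 library and Whe10 and Whe3 with 4 libraries each. The Whe10 libraries had Xist at 29664 to 32912 normalized counts and Ddx3y at 0, and the other 5 had Xist at 0 to 8.39 and Ddx3y at 2376 to 2720, so the prefix and the sex of the cells cannot be told apart. The labels call the cells fibroblasts. Of 14 fibroblast markers, 13 were above the floor of 3 reads in every library, and so were all 14 macrophage markers. The summed macrophage markers were at 655724 normalized counts in MET_EL, 696446 to 793302 in Whe10 and 540997 to 848849 in Whe3. The summed fibroblast markers were at 876618, 369380 to 591983 and 513106 to 1011080 in the same order. Single genes weighed heavily in these sums. Lyz2 alone was at 421299 in MET_EL and at 577311 in Whe3-7A, the library with the highest macrophage sum. Fn1 alone was at 316245 in MET_EL and at 432514 in Whe3-12A, the library with the highest fibroblast sum. Of the epithelial markers 6 of 7 were listed, Epcam was at 0 in all 9 libraries, and their sum was at most 313.7 normalized counts. In bulk RNA, fewer cells of a type and less RNA per cell cannot be told apart. The sources used here do not say how many mice gave the clones. By Xist and Ddx3y the Whe10 clones and the other 5 differ in sex, so they did not all come from 1 mouse. A comparison of Whe10 with Whe3 is therefore also one between mice. Whether the clones of 1 prefix came from separate mice is not stated.

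The 34 genes together held 1.51% ± 0.157 (SD, n = 9) of all normalized counts, with a range of 1.22 to 1.74%. Their median percentile among all listed genes was 94.1 ± 0.763 (SD, n = 9), counted in reads per gene and without correction for gene length. Gene lengths were not at hand, so levels are compared below between clones for 1 gene at a time and not between genes.

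**Figure D1:**
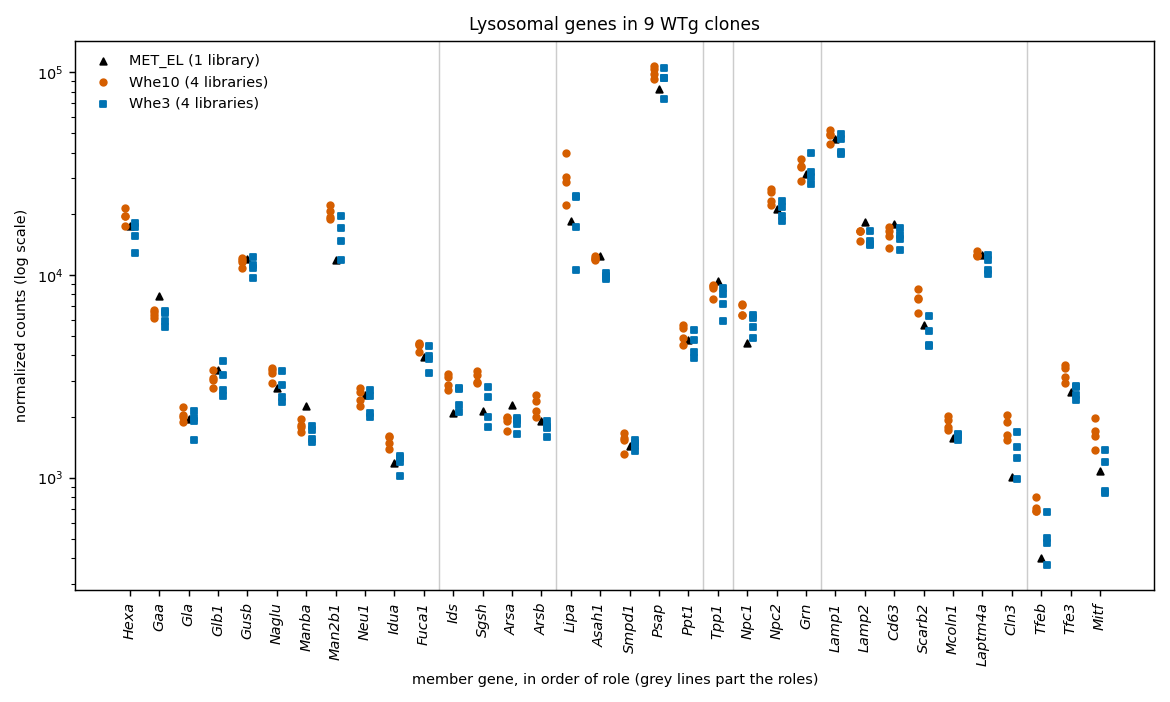
Normalized counts (log scale) of the 34 genes in the 9 libraries, with genes in order of role and grey lines between roles; each point is 1 library (triangle MET_EL, circles Whe10, squares Whe3). Levels should be compared within a gene only, since they are not per length; the points of Lipa spread from 10598 to 39893 and those of Gusb only from 9647 to 12272.

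Among the glycosidases, which remove single sugars from glycans and glycolipids, most varied little between clones. Gusb, the beta-glucuronidase, ranged from 9647 to 12272 normalized counts with a median of 11589. Its SD on the log2(normalized counts + 1) scale, 0.11 over 9 clones, was the smallest of the 34 genes. Man2b1, the lysosomal alpha-mannosidase, was the most variable of the 11 with a log2 SD of 0.34. It was at 11843 in MET_EL, at 20672, 18867, 22005 and 19201 in the Whe10 libraries 10A, 11A, 7A and 8A, and at 14658, 11785, 19564 and 17052 in the Whe3 libraries 11A, 12A, 5A and 7A. The same order of libraries is kept throughout. MET_EL and Whe3-12A were thus low for Man2b1 and the Whe10 libraries high, with Whe3-5A among them. Hexa, which takes part in the breakdown of gangliosides, lay between 12803 and 21271. Idua, the alpha-L-iduronidase of heparan and dermatan sulfate breakdown, lay between 1015 and 1598. Manba, the beta-mannosidase, and Gaa, the acid alpha-glucosidase of glycogen breakdown, had their highest values in MET_EL, at 2254 and 7845. Gla, Glb1, Naglu, Neu1 and Fuca1 had ratios of the highest to the lowest clone between 1.39 and 1.48.

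The sulfatases remove sulfate from glycosaminoglycans and sulfatides. Sgsh, the heparan N-sulfatase, was at 2131 normalized counts in MET_EL, at 3362, 2959, 3188 and 2919 in Whe10, and at 1997, 1775, 2804 and 2502 in Whe3. The 4 Whe10 values were all above the other 5. Ids, the iduronate 2-sulfatase, ranged from 2092 in MET_EL to 3243 in Whe10-10A. Arsb, the arylsulfatase B of dermatan sulfate breakdown, ranged from 1577 to 2555, and Arsa, the arylsulfatase A of sulfatide breakdown, from 1641 to 2276.

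Of the lipid genes, Lipa, the acid lipase that frees cholesterol from its esters, had the largest spread of the 34 genes, with a log2 SD of 0.55 and a ratio of 3.76 between the highest and the lowest clone. It was at 18324 normalized counts in MET_EL, at 28766, 22153, 39893 and 30363 in Whe10 and at 24425, 10598, 24312 and 17130 in Whe3. The groups overlapped, since Whe10-11A was below Whe3-11A and Whe3-5A. Smpd1, the acid sphingomyelinase, had a log2 SD of 0.11 and ranged from 1304 to 1663. Asah1, the acid ceramidase, was at 12423 in MET_EL, at 12088, 12435, 11911 and 11829 in Whe10 and at 10167, 9879, 9538 and 9736 in Whe3, so MET_EL lay with the Whe10 libraries and the 4 Whe3 libraries were lower. Psap, the precursor of the saposins that present sphingolipids to their hydrolases, ranged from 73784 to 107550, and Ppt1, a thioesterase that removes fatty acids from proteins, from 3891 to 5641. Tpp1, the only protease kept in the list, ranged from 5911 to 9320.

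Npc1 and Npc2 hand cholesterol out of the lysosome. Npc1 was lowest in MET_EL, at 4622 normalized counts, and highest in Whe10-10A, at 7150. Npc2 ranged from 18517 to 26386. Grn, the progranulin precursor of secreted and lysosomal granulins, ranged from 28157 to 39673. The ranges of Npc2 and Grn across clones were narrow, with ratios of the highest to the lowest clone of 1.42 and 1.41.

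The membrane proteins had a median log2 SD of 0.14, the lowest of the roles with 3 or more genes. Lamp2, which lines the membrane and takes part in chaperone-mediated autophagy, ranged from 14100 to 18135 normalized counts with a log2 SD of 0.12. Laptm4a had a log2 SD of 0.13 and Mcoln1, the calcium channel mucolipin 1, of 0.14. These 3 were among the 5 least variable of the 34, with Gusb and Smpd1. Lamp1 ranged from 39322 to 51948 and Cd63, a tetraspanin, from 13239 to 17752. Cln3, a multipass protein lost in juvenile neuronal ceroid lipofuscinosis, varied more, with a log2 SD of 0.37. It was at 1002 in MET_EL, at 1871, 1532, 2042 and 1620 in Whe10 and at 1247, 988, 1675 and 1415 in Whe3, and the groups overlapped through Whe3-5A. Scarb2, an abundant protein of the lysosomal membrane, was at 5626 in MET_EL, at 7716, 6458, 8538 and 7603 in Whe10 and at 6284, 4466, 5284 and 4531 in Whe3. Every Whe10 value of Scarb2 was above every Whe3 value, but Whe10-11A exceeded Whe3-11A by little.

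The transcription factors varied most as a role, with a median log2 SD of 0.40. Tfeb was at 403 normalized counts in MET_EL, at 707, 684, 806 and 680 in Whe10 and at 502, 371, 673 and 477 in Whe3. Mitf was at 1079 in MET_EL, at 1962, 1599, 1704 and 1373 in Whe10 and at 841, 860, 1370 and 1193 in Whe3. Tfe3 was at 2655 in MET_EL, at 3460, 3144, 3588 and 2936 in Whe10 and at 2551, 2407, 2829 and 2793 in Whe3. For each of the 3 the lowest Whe10 value was above the highest Whe3 value, and for Tfeb and Mitf Whe3-5A, at 673 and 1370, came close to it. Mitf is known from pigment cells. Of 4 melanocyte markers 2 were listed, Pmel and Mlana, and their summed level was 6.36 to 30.6 normalized counts. Of 5 osteoclast markers 2 were listed, Acp5 at 23.6 to 105.6 and Ctsk at 1006 to 3202.

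The log2 SD of the 34 genes over the 9 clones had a median of 0.18, with a range of 0.11 to 0.55. It was 0.30 over the 16962 genes that averaged 1 normalized count or more and 0.17 over the 7095 genes whose mean was at or above that of Tfeb, the lowest member by count. The other members have more reads than Tfeb, and the spread of the list was not compared with that of genes matched in level. Lipa, Mitf, Tfeb, Cln3 and Man2b1 had the largest values. For genes whose promoter held CACGTG the median log2 SD was 0.15 (9 genes), and for the others with a promoter it was 0.18 (23 genes).

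**Figure D2:**
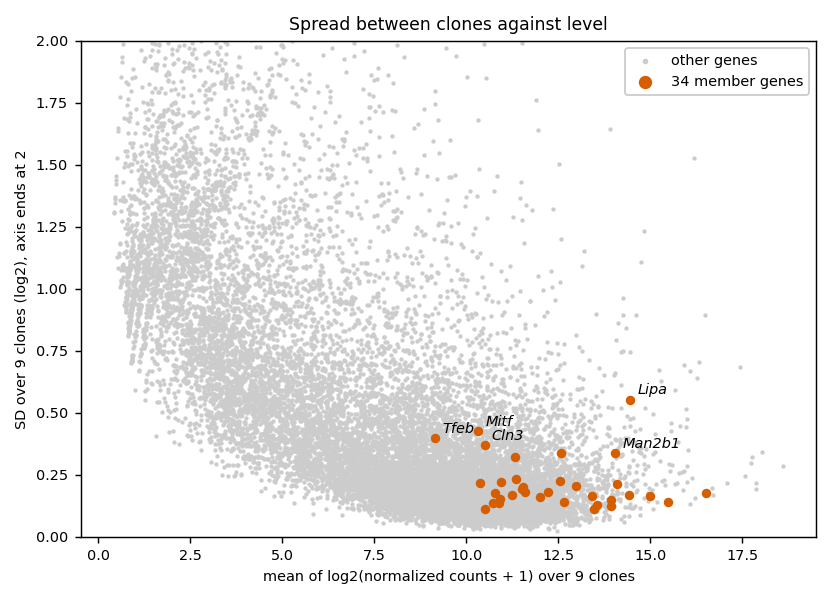
SD over 9 clones of log2(normalized counts + 1) against its mean, for each gene that averaged 1 normalized count or more (grey; the vertical axis ends at 2) and for the 34 lysosomal genes (orange). The SDs of the 34 run from 0.11 to 0.55, and Lipa has the largest of them.

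The lowest and the highest values were not shared evenly among the libraries. Whe3-12A had the lowest value for 18 of the 34 genes, while 19.9% of the genes with a mean at or above that of Tfeb were lowest there. In Whe3-12A 1 of the 34 genes was above its mean over the 9 clones in normalized counts. The median deviation of the 34 genes there was −0.27 on the log2 scale, against −0.021 for genes at that level. This library had the lowest summed macrophage markers, 540997 normalized counts, and the highest summed fibroblast markers, 1011080, and their part in the low lysosomal values was not tested. Whe10-10A and Whe10-7A each had the highest value for 10 of the 34 genes, against 10.9% and 21.1% of the genes with a mean at or above that of Tfeb. MET_EL had it for 6, namely Gaa, Manba, Arsa, Tpp1, Lamp2 and Cd63, against 23.6%. Whe3-5A had the lowest value for 9, against 8.99%. MET_EL went both ways, since it was also the lowest of all for Ids and Npc1. It was the second lowest for Man2b1, Idua, Psap, Mcoln1, Cln3 and Tfeb.

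**Figure D3:**
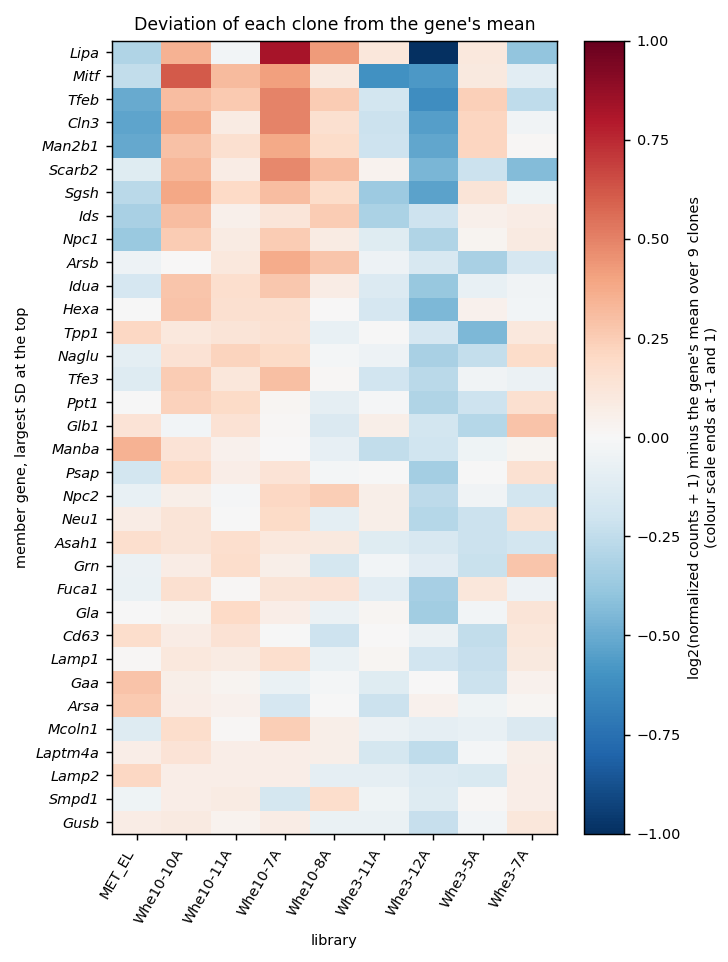
Deviation of each library (columns) from the mean of the gene over 9 clones (rows, sorted by SD) on the log2(normalized counts + 1) scale, red above and blue below the mean; colours end at -1 and 1. The median deviation of the 34 genes is −0.27 in the Whe3-12A column and 0.14 in the Whe10-10A column.

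The only split among the clones is the column prefix, so the 4 Whe10 and the 4 Whe3 libraries were compared with limma across 16962 genes, with all 9 libraries in the fit. None of the 34 genes passed an adjusted p of 0.05 in either direction, while 28 of all genes did (0.165% of those tested, 0.0649% higher and 0.1% lower in Whe10). With voom on the recovered reads 0 of the 34 passed, against 0.136% of all genes in either direction and 0.0531% higher in Whe10. At an unadjusted p under 0.05 there were 15 of the 34, all higher in Whe10, against 10.4% of all genes higher in Whe10 at that p and 18.6% in either direction. The fitted difference, Whe10 minus Whe3 on the log2(normalized counts + 1) scale, was above 0 for 34 of 34 genes, against 52.5% of all genes, with a median of 0.21, against 0.017 for all genes. It ranged from 0.026 for Glb1 to 0.71 for Lipa. The 34 genes were measured in the same 8 libraries and are not 34 separate observations. The 4 Whe10 values were all above the 4 Whe3 values for 9 of the 34 genes, namely Idua, Sgsh, Arsb, Asah1, Scarb2, Mcoln1, Tfeb, Tfe3 and Mitf, against 5.25% of all genes. They were all below for 0 of the 34, against 4.24%. The 34 genes were not set against other lists by a test.

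The 3 genes with the smallest p in this comparison were Asah1, Scarb2 and Idua, whose values per library are above except for Idua. The difference of Asah1 was 0.30 with a standard error of 0.058 (limma, adjusted p = 0.113). That of Scarb2 was 0.57 with a standard error of 0.13 (limma, adjusted p = 0.136). Idua was at 1173 normalized counts in MET_EL, at 1598, 1477, 1586 and 1385 in Whe10 and at 1198, 1015, 1249 and 1283 in Whe3, and its difference was 0.35 with a standard error of 0.089 (limma, adjusted p = 0.156). For these 3 genes the Whe10 and Whe3 values did not overlap, and their differences did not pass the adjustment over all genes. The 3 were picked by their p, so the lack of overlap is not separate support. By role, the median difference was 0.54 for the transcription factors, 0.32 for the sulfatases, 0.23 for the genes of sterol export and Grn, 0.18 for the lipid genes and for the membrane proteins, and 0.14 for the glycosidases. Tfeb differed by 0.54, Tfe3 by 0.31 and Mitf by 0.66, each with an adjusted p between 0.160 and 0.179 (limma). For genes with CACGTG in the promoter the median difference was 0.15 and for the others with a promoter 0.21. Of the 34 genes Gla, Ids, Lamp2 and Tfe3 are on the X chromosome, and their differences were 0.11, 0.28, 0.11 and 0.31.

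**Figure D4:**
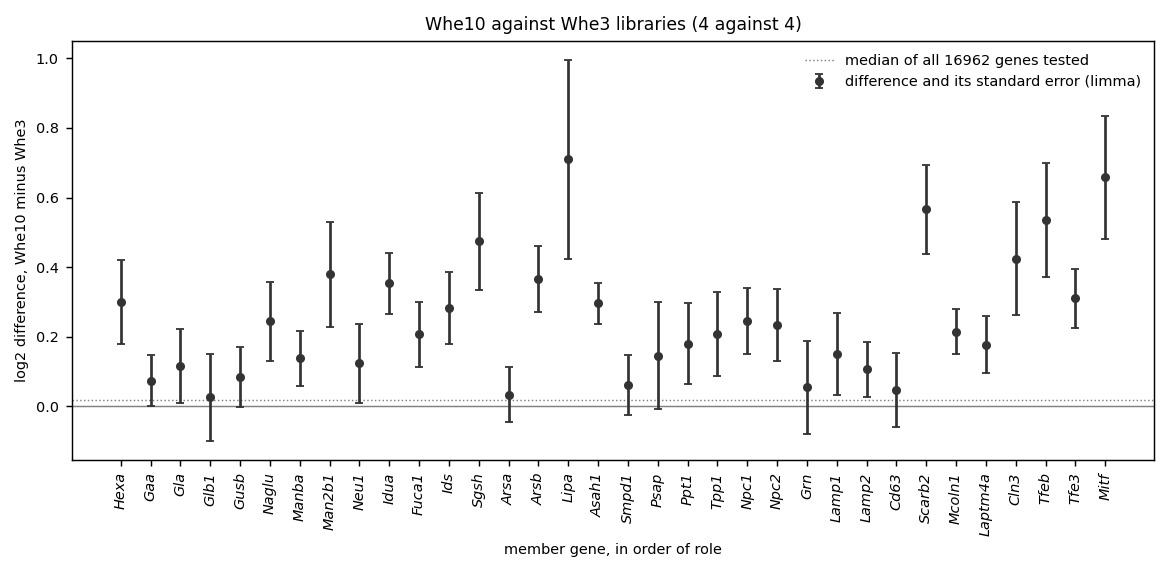
Difference in log2(normalized counts + 1) between the 4 Whe10 and the 4 Whe3 libraries for each of the 34 genes (points) with its standard error from limma (bars), genes in order of role; the dotted line is the median of all 16962 genes. All points lie above 0, from 0.026 for Glb1 to 0.71 for Lipa, and none passed an adjusted p of 0.05.

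Macrophage and fibroblast markers moved with the prefix too. The 14 macrophage markers had differences above 0 in 14 of 14, with a median of 0.38 and 0 that passed the test, and 3 of the 14 fibroblast markers were above 0, with a median of −0.69. The 4 epithelial markers that could be tested had a median difference of −1.45, the 4 endothelial markers of 0.20 and the 6 acinar markers of −2.58. Summed acinar markers were at 2415 normalized counts in Whe3-5A and at 144.4 to 396.5 in the other 8 libraries. Only 2 epithelial, 1 endothelial and 1 acinar marker were above the floor of 3 reads in every library. Of all the markers tested, an unadjusted p under 0.05 (limma) was reached by 1 epithelial, 1 endothelial and 0 acinar markers. These 3 medians thus rest mostly on genes with few reads and show no clear shift. The part of these cell types and of sex in the lysosomal differences was not tested. Without Whe3-5A, 242 genes passed the test and Tfeb was the 1 member among them (limma, adjusted p = 0.0480). The number of genes that passed was 9 without Whe10-10A, 14 without Whe10-11A, 12 without Whe10-7A, 15 without Whe10-8A, 14 without Whe3-12A and 10 without Whe3-7A, with 0 members in each. Between 31 and 34 of the 34 differences were above 0 when 1 library was left out, with Glb1, Cd63, Grn and Arsa the genes at or below 0 in at least 1 of these fits.

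Mettl3, which the transgene carries, was at 2184 normalized counts in MET_EL and at 468 to 621 in the other 8 libraries, with reads from the transgene and the endogenous gene counted together. Across 9 clones, none of the 34 genes passed the test for a slope on log2 Mettl3, while 417 of 16961 genes did (2.46%, with 0.324% rising and 2.13% falling). At an unadjusted p under 0.05 there were 3 of the 34, against 14.6% of all genes. With voom 0 of the 34 passed, against 72 of 16961 genes. The smallest p values were those of Manba, with a slope of 0.21 per log2 unit of Mettl3 and a standard error of 0.059 (limma, adjusted p = 0.126), Gaa, with 0.16 and 0.054 (limma, adjusted p = 0.190), and Arsa, with 0.14 and 0.056 (limma, adjusted p = 0.288). Manba was at 2254 in MET_EL, at 1943, 1819, 1768 and 1672 in Whe10 and at 1493, 1542, 1716 and 1805 in Whe3. Gaa was at 7845 in MET_EL, at 6725, 6575, 6155 and 6338 in Whe10 and at 5921, 6459, 5547 and 6638 in Whe3. MET_EL was the highest library for all 3, and that clone alone spanned most of the range of Mettl3. Without MET_EL 0 of 16961 genes passed, with 1775 at an unadjusted p under 0.05, 7 of the 34 members among them. With the prefix as a term 0 of 16961 passed, with 463 at that p and 0 of the 34 among them. The count of members at an unadjusted p thus moved from 3 to 7 and 0 with the fit. Mettl3 itself was at 546, 621, 611 and 515 in Whe10 and at 468, 490, 480 and 502 in Whe3. Every Whe10 value was above every Whe3 value, so without MET_EL a slope on Mettl3 is mixed with the difference between the prefixes. Without MET_EL the slope was 0.50 for Manba (limma, adjusted p = 0.538), 0.26 for Gaa (limma, adjusted p = 0.705) and 0.084 for Arsa (limma, adjusted p = 0.912), and that of Arsa was −0.021 with the prefix as a term.

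The relation across the 9 clones was tested for 6 pairs of genes by exact two-sided permutation over all 362880 pairings, adjusted over the 6. The pairs other than Mettl3 with Tfeb were chosen as genes that work together. Tfeb and Mcoln1, a target and regulator of Tfeb, had Pearson's r of 0.794 (exact p = 0.0108, adjusted 0.0534) and Spearman's rho of 0.9 (exact p = 0.00203, adjusted 0.0122). After centring within Whe10 and Whe3 the r of this pair was 0.337 (n = 8). Leaving out the 2 clones whose Tfeb was farthest from its median gave 0.828. Lamp1 and Lamp2 had an r of 0.728 (exact p = 0.0291, adjusted 0.0583) and a rho of 0.567 (adjusted 0.181, exact). Their r was 0.889 within the prefixes (n = 8, exact adjusted p = 0.0625), 0.922 without MET_EL (exact adjusted p = 0.00863) and 0.393 after the 2 clones with the Lamp1 values farthest from the median were left out, so the size of the relation depended on which clones were included. Glb1 and Neu1, which sit in 1 multienzyme complex, had an r of 0.763 (exact p = 0.0178, adjusted 0.0534), a rho of 0.617 (adjusted 0.171, exact), an r of 0.787 within the prefixes and of 0.642 without the 2 farthest clones.

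The other 3 pairs had larger p values. Grn and Psap, whose products bind each other, had an r of 0.583 (exact p = 0.0986, adjusted 0.128) and a rho of 0.7 (exact p = 0.0433, adjusted 0.130), with an r of 0.579 within the prefixes and 0.507 without the 2 farthest clones. Npc1 and Npc2 had an r of 0.573 (exact p = 0.106, adjusted 0.128) and a rho of 0.5 (adjusted 0.213, exact), with 0.208 within the prefixes and 0.258 without the 2 farthest clones. Mettl3 and Tfeb had an r of −0.347 (exact p = 0.381) and a rho of 0.317. Their r was 0.633 without MET_EL but 0.025 within the prefixes (n = 8). Both genes were higher in every Whe10 library than in every Whe3 library. The r and rho of this pair thus differed in sign, with MET_EL the clone that set the sign of r.

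**Figure D5:**
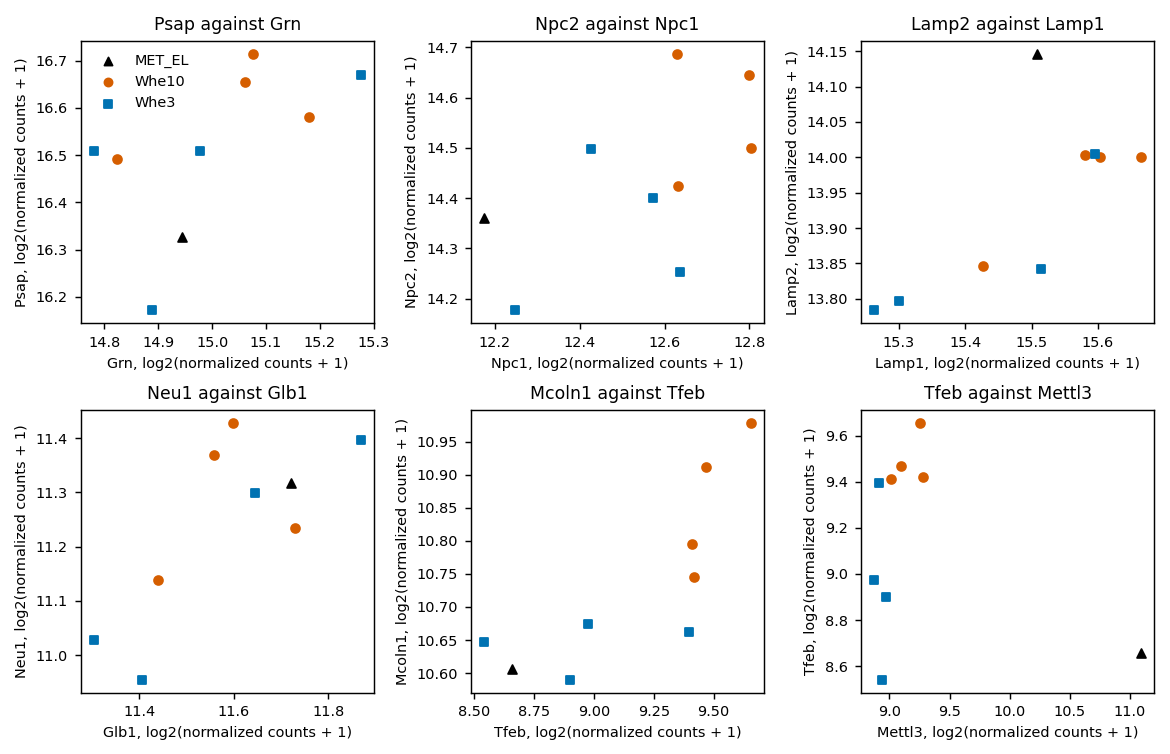
Values of log2(normalized counts + 1) for 6 pairs of genes, 1 point per clone (triangle MET_EL, circles Whe10, squares Whe3). In the Tfeb and Mcoln1 panel (r 0.794) the Whe10 clones lie above the Whe3 clones on both axes, and in the Mettl3 and Tfeb panel (r −0.347) MET_EL stands alone at the right.

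Of 15 other hydrolases and activators, 13 had a difference above 0 between Whe10 and Whe3, with a median of 0.23, 8 at an unadjusted p under 0.05 and 0 that passed the test. Of all genes 52.5% had a difference above 0 and 18.6% an unadjusted p under 0.05, and the counts of the lists that follow are to be read against these shares. Ctsa, the protective protein of the Glb1 and Neu1 complex, had a difference of 0.28 (limma, adjusted p = 0.264). Hgsnat, the acetyltransferase of heparan sulfate breakdown and named here after its values were seen, ranged from 2368 in MET_EL to 20001 in Whe10-7A, a ratio of 8.45, wider than that of any of the 34 genes. Its difference was 1.18 with a standard error of 0.39 (limma, adjusted p = 0.193).

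Of 6 genes of targeting to the lysosome, 4 had a difference above 0, with 4 at an unadjusted p under 0.05 and 0 that passed with limma or voom. Sort1, the sorting receptor sortilin, was at 536 normalized counts in MET_EL, at 3901, 2996, 4226 and 3237 in Whe10 and at 2337, 1232, 2981 and 1715 in Whe3. Igf2r, the large mannose 6-phosphate receptor, was at 8075 in MET_EL, at 4940, 5843, 3933 and 4751 in Whe10 and at 6464, 8485, 4709 and 7732 in Whe3, with a difference of −0.47 (limma, adjusted p = 0.243). Sort1 was thus lowest where Igf2r was near its highest, in MET_EL and Whe3-12A, and its difference was 0.86 (limma, adjusted p = 0.174). M6pr, the small receptor, differed by −0.0046 and Gnptab, which makes the mannose 6-phosphate mark, by 0.16. Of 12 proton pump genes, 9 had a difference above 0, with a median of 0.091, and Atp6v0d2, a subunit known from osteoclasts and macrophages, had 0.52. Of 12 other membrane and transport proteins, 12 were above 0, with a median of 0.25, Cd68 among them with 0.26, and of 11 genes of nutrient sensing at the lysosome 8 were, with a median of 0.076. None of the genes of these 3 lists passed the test, with 0, 5 and 2 at an unadjusted p under 0.05 and 0 passing with voom.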

How the data were processed

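Stranded mRNA libraries of 9 WTg clones were sequenced. The submitters' processing notes name FastQC 0.11.9, STAR 2.7.10, RSEM 1.3.3 and the build GRCm38. The deposited values are log2 values, and the authors had multiplied the read counts of each library by 1 factor and added 4 before taking the log2. The column names did not match single sample titles, so all were treated as 1 group of replicates. A further 6 columns, of libraries from other studies, were not used. P-values measure the spread between these libraries only.

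The log2 was undone and 4 subtracted. The step between low values gave whole reads (tolerance 0.1 reads) for all nonzero values under 1000 reads. No library repeated another, since chi-square over degrees of freedom was 24.3 for the most alike pair. The floor of 3 reads was 3.79 to 6.56 normalized counts and covers counting error only. Tests used limma 3.58.1 (lmFit, eBayes with a trend, two-sided, Benjamini-Hochberg over all genes, threshold 0.05) in R 4.3.3 on log2(normalized counts + 1) for genes with a mean of at least 1, which understates changes of low genes. The fits were tested on simulated data. Pairs were tested with Python 3.11.15, numpy 2.4.6, pandas 2.3.3 and scipy 1.17.1, and plots made with matplotlib 3.10.9. Named were all 34 genes, the 3 with the smallest p where none passed, the 5 most and 5 least variable, and some genes of the pathway lists, of which a few are not reported here. Alternatives were other pseudocounts, scalings, filters, tests and libraries left out. The 34 genes, the lists and the tests were chosen with earlier results of these data known. No exonic lengths were at hand, so the ranking per length that had been planned was not made.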

Additional observations from a re-analysis of the deposited data

Results flagged for a closer look

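Among the 34 genes and the other genes named, 45 in all, the highest and the lowest of the 9 libraries were set against the rest. In Mettl3 the gap between MET_EL and the next library was 0.911 of the whole range, above the 95% limit of 0.493 for 9 samples. By chance 2.25 of 45 genes would pass this limit, and 1 did. That 1 was Mettl3, whose high value in MET_EL was known before the genes were chosen, so it is not a find of this screen. In none of the 34 lysosomal genes did a single library stand apart in this way.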

How the results depend on the processing

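No paired analysis was possible because the labels give a single group. Of 113 recomputed values that answer a comparison, 95 were kept, meaning the same direction and side of the threshold for a test, within 1.5 times for a count of genes and within 1 SD for a level. No r passed at first, so an r that kept its sign counted as kept even where it fell. That of Tfeb and Mcoln1 fell from 0.794 to 0.337 after centring within the prefixes. The rho values were not among the 113. Another 14 counts moved by more, 3 values reversed and 1 newly passed. In the comparison of Whe10 with Whe3, 17 genes passed without a trend in limma, and 9 to 242 when 1 library was left out, with 0 to 1 of the 34 genes among them. For the slope on Mettl3, 0 genes passed without MET_EL, 0 with the prefix as a term, 656 with a pseudocount of 0.1, 238 with genes averaging 50 normalized counts or more and 72 with voom, against 417. The slope of Arsa became −0.0207 with the prefix as a term. The r of Lamp1 and Lamp2 passed without MET_EL, at 0.922. The r of Mettl3 and Tfeb was 0.633 without MET_EL, 0.654 with the 2 clones of most extreme Mettl3 left out, and 0.0254 after centring within the prefixes. The causes were not tested. Rescaling to the upper quartile shifted a library by at most 0.068 on the log2 scale. The lowest read count of the 34 genes was 184. Whether depth or the number of libraries limits the count of genes that passed was not tested.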
